A study of Mus musculus with 16 samples.

Results

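Inhibitory receptors are surface proteins that restrain an activated T cell. Most act through tyrosine motifs in their tails that recruit phosphatases, or by taking ligands away from activating receptors. T cells put many of them on the surface within days of activation, and cells exposed to antigen for a long time keep several of them together with TOX, a nuclear protein of the high-mobility-group box family that is needed for the exhausted state of such cells. The genes described here are Pdcd1, Ctla4, Havcr2, Lag3, Tigit, Cd160 and Btla, which encode inhibitory receptors, Entpd1, which encodes the ectoenzyme CD39, and Tox and Tox2. These 10 genes were taken by symbol from the 55335 gene identifiers of the count table, where each had 1 row. The choice used no measured value of these libraries, although it was made with earlier results of the same data known.

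Their transcripts were followed by RNA sequencing in CD8 T cells of the mouse, which recognise and kill infected cells. The groups were Batf3 ko cells at 72 h, wt cells at 72 h, Batf3 ko cells at 48 h and wt cells at 48 h, with 4 libraries in each and 16 in all. All came from spleens of C57BL/6 mice, were enriched for CD8 T cells without a stated sort, and were activated with plate-bound antibodies to CD3 and CD28, each at 1 µg/ml, in medium with the cytokine IL-15 at 50 ng/ml. Batf3 encodes a basic leucine zipper factor that binds AP-1 sites in pairs with JUN proteins. The ko is of the germline (Batf3-/-), so cells other than T cells lacked it too before the culture. The labels state no age. The libraries of a group are called technical replicates in the series text, so p-values reflect how far such libraries vary, and say nothing of variation from mouse to mouse. In bulk RNA, more cells carrying a transcript and more transcript per cell cannot be told apart.

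Library totals ran from 29375818 to 39241169 counts. Levels are CPM, counts scaled by the total of their library, and fold changes come from an edgeR quasi-likelihood fit with TMM scaling over 15197 genes, with Benjamini-Hochberg adjusted p-values and a threshold of 0.05. The TMM factors were 0.941 to 0.958 in ko 72 h libraries and 1.01 to 1.07 in wt 72 h libraries, so fitted folds at 72 h are larger than ratios of the CPM values. Batf3 averaged 0.0916 ± 0.183 CPM in ko and 30.9 ± 2.65 CPM in wt cells at 72 h, and 0.129 ± 0.0658 CPM in ko and 80.7 ± 5.86 CPM in wt cells at 48 h (SD, n = 4 each), as the labels say. Cd8a averaged 306 CPM in ko and 345 CPM in wt cells at 72 h, and 286 CPM in ko and 292 CPM in wt cells at 48 h, and did not pass the threshold at either time (adjusted p = 0.531 and 0.98). Ko 48 h replicate 4 and wt 72 h replicate 4 stood apart from their groups, with a median deviation over genes of 0.155 and 0.141 on the log2 scale against 0.0617 to 0.108 in the other 14 libraries. Where leaving both out changed a call for a gene of the set, the value without them is given.

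Batf3 pairs with AP-1 proteins, and NFAT is a calcium-driven factor known to act on Pdcd1, Ctla4 and Havcr2. Start regions were therefore searched for the letters of AP-1 and NFAT sites. Those of Havcr2 and Ctla4, the only ones found with a match, are shown with those of Pdcd1 and Tigit. Each runs from 250 bases before to 50 bases after the RefSeq start site in GRCm38.p6, read 5′ to 3′ on the strand of its gene. Capitals mark the AP-1 letters TGANTCA in Havcr2 and the NFAT core letters TGGAAA, read on the opposite strand, in Ctla4. The windows are chr11:46454681-46454980 on the plus strand for Havcr2, chr1:60908775-60909074 on the plus strand for Ctla4, chr1:94052504-94052803 on the minus strand for Pdcd1 and chr16:43664135-43664434 on the minus strand for Tigit.
Havcr2: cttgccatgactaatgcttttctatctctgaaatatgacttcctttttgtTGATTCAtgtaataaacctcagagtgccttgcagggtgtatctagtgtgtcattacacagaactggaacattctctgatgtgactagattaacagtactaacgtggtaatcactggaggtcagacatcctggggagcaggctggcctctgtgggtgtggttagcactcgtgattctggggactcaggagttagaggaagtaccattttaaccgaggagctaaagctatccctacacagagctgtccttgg
Ctla4: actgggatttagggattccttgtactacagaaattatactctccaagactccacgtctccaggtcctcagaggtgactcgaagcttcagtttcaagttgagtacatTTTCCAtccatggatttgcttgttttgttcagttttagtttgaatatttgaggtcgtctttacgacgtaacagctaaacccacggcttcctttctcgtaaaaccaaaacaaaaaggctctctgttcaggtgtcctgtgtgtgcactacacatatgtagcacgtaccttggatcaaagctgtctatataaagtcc
Pdcd1: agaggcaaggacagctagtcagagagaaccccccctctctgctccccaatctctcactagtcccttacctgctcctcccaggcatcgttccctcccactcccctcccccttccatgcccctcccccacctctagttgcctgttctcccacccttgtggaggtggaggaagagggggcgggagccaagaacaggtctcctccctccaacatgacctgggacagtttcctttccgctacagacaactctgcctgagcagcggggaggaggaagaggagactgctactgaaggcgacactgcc
Tigit: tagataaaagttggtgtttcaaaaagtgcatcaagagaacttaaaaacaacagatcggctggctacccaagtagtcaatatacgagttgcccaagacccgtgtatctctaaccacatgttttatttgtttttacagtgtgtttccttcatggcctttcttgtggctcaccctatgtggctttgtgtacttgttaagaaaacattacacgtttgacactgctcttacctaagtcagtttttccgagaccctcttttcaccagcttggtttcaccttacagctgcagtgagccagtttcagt

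The reference table matched 8 of the 10 genes with 14 start regions, and had no entry for Lag3 and Tox. On either strand, TGANTCA was found in 1 of the 14, that of Havcr2 at position -200 from the start site, and in 7.81% of 32851 mouse start regions of the same length. TGGAAA was found in 1 of the 14, that of Ctla4 at -144, and in 21.4% of all start regions. The letters of Pdcd1 and Tigit hold neither motif in these windows. These are letter matches and not measured binding sites.

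Havcr2 and Lag3 stood out among the receptors: both were higher in cells without Batf3 at each time and climbed steeply between the times. Tigit and Entpd1 were higher in ko cells at 72 h, Pdcd1 was higher at both times by less, and Cd160 at 48 h. Tox alone was lower in ko cells, at 72 h. Of the 9 genes that passed the filter on low counts, 5 were higher and 1 was lower in ko than in wt cells at 72 h, where 16.9% of all tested genes were higher and 19.5% lower. At 48 h 4 were higher and 0 were lower, where 4.41% of all tested genes were higher and 2.66% lower. No tested gene of the set was lower at 48 h at an unadjusted p below 0.05 either, or in DESeq2, and 5 were higher at that p. The share of all tested genes at that unadjusted p is not given here, so the 5 have no background to be set against. DESeq2 called 4 genes of the set higher at 48 h, and over all genes 800 higher and 774 lower. Median log2 fold changes of the 9 were 0.25 at 72 h and 0.2 at 48 h, beside -0.02 and 0.01 over all tested genes.

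**Figure D1:**
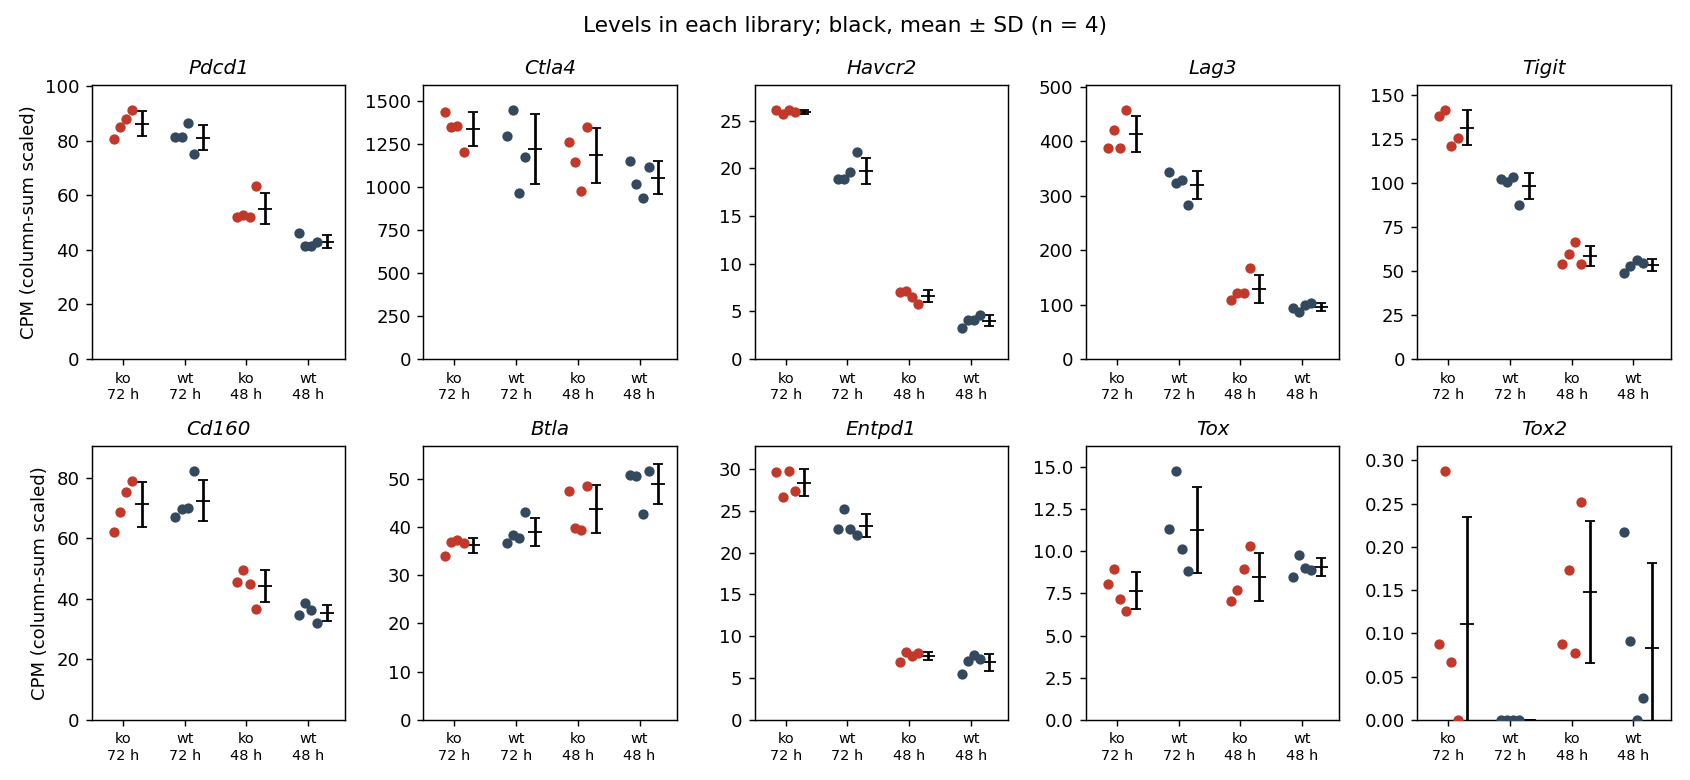
CPM (vertical axes, from 0, each gene on its own scale) of the 10 genes in the 16 libraries, as points, for ko 72 h, wt 72 h, ko 48 h and wt 48 h, with the mean ± SD of 4 libraries in black. Havcr2 and Lag3 of ko libraries lie above those of wt libraries at both times with no overlap, and Tox2 stays near 0 in all libraries. The share of all genes without such overlap was not counted.

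Pdcd1 (ENSMUSG00000026285, chromosome 1, 94038305 to 94052553, minus strand, GRCm38) encodes PD-1, the receptor for PD-L1 and PD-L2 that recruits the phosphatase SHP-2. At 72 h it had 80.5, 85.1, 88 and 91.3 CPM in ko libraries, against 81.4, 81.5, 86.4 and 75 CPM in wt libraries. These ranges overlap. The log2 fold change was 0.22 (SE 0.06, adjusted p = 0.00943), but 0.09 (adjusted p = 0.331) with library-size scaling and 0.13 (adjusted p = 0.138) with offsets for the dependence of each library on exon length. At 48 h it had 52.1, 52.6, 51.9 and 63.5 CPM in ko libraries, against 46.3, 41.2, 41.3 and 42.9 CPM in wt libraries, with no overlap. There the log2 fold change was 0.39 (SE 0.06, adjusted p = 0.00039) and was past the threshold in all 25 alternatives. Here and below, 16 of the 25 are fits that leave out a library, and those that leave out a library of another group remove none from the comparison. Its highest ko library at 48 h is replicate 4, which stands apart, and without that library and wt 72 h replicate 4 the call remained.

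Ctla4 (ENSMUSG00000026011, chromosome 1, 60887000 to 60915832, plus strand) encodes a receptor that competes with CD28 for CD80 and CD86. It had 1436, 1349, 1353 and 1202 CPM in ko and 1299, 1448, 966 and 1177 CPM in wt libraries at 72 h. At 48 h it had 1260.1, 1146, 978 and 1351 CPM in ko and 1152, 1016, 937 and 1113 CPM in wt libraries. Ko and wt libraries overlapped at both times, and neither difference passed the threshold. The log2 fold change was 0.25 at 72 h (95% interval 0.03 to 0.48, adjusted p = 0.0747) and 0.2 at 48 h (95% interval -0.02 to 0.43, adjusted p = 0.289). At 72 h it passed in 5 of 25 alternatives, among them the fit without wt 72 h replicate 2 (adjusted p = 0.0151) and that without ko 72 h replicate 4 (adjusted p = 0.0495). Pdcd1 and Ctla4 lie on the chromosome that carries Batf3, 97.1 and 130.2 Mb from it.

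Havcr2 (ENSMUSG00000020399, chromosome 11, 46454935 to 46481255, plus strand) encodes TIM-3, a receptor for galectin-9 and phosphatidylserine found on effector and exhausted T cells. It had 26.1, 25.7, 26.1 and 25.9 CPM in ko libraries at 72 h, against 18.8, 18.9, 19.6 and 21.7 CPM in wt libraries. At 48 h it had 7.08, 7.16, 6.55 and 5.77 CPM in ko libraries, against 3.24, 4.12, 4.09 and 4.66 CPM in wt libraries. Every ko library was above every wt library of its time. Log2 fold changes were 0.52 at 72 h (SE 0.10, adjusted p = 0.00019) and 0.76 at 48 h (SE 0.11, adjusted p = 0.000117), which correspond to 1.43-fold and 1.69-fold higher levels in ko cells. At 48 h this was the largest change among the 9 tested genes, larger in size than 95.9% of all tested genes.

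Lag3 (ENSMUSG00000030124, chromosome 6, 124904361 to 124911705, minus strand) encodes a CD4-like receptor that binds MHC class II. At 72 h it had 388, 420.2, 387 and 458 CPM in ko libraries, against 344, 324, 329.6 and 284 CPM in wt libraries. At 48 h the ko libraries had 108, 121, 121 and 167 CPM, against 94.5, 86.7, 99 and 103 CPM in wt libraries. Again no ko library overlapped a wt library of its time. It was higher in ko cells by 0.5 on the log2 scale at 72 h (SE 0.09, adjusted p = 0.000131) and by 0.46 at 48 h (SE 0.09, adjusted p = 0.0024). Ko 48 h replicate 4, which stands apart, was the highest at 48 h, and the 48 h value ran from 0.33 to 0.52 over 25 alternatives, all past the threshold.

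Tigit (ENSMUSG00000071552, chromosome 16, 43648867 to 43664146, minus strand) encodes a receptor that competes with the activating receptor CD226 for the poliovirus receptor CD155. At 72 h its ko libraries had 138, 142, 121 and 125 CPM, against 102, 101, 103 and 87.3 CPM in wt libraries. The groups were apart, and the log2 fold change of 0.55 (SE 0.07, adjusted p = 4.58e-06) had the smallest adjusted p of the 9 genes in either comparison of genotypes. At 48 h its ko libraries had 53.9, 59.5, 66.4 and 54.2 CPM, against 48.7, 53, 56.5 and 54.8 CPM in wt libraries, and the groups overlapped. The log2 fold change there was 0.17 (95% interval 0.02 to 0.32, adjusted p = 0.172), and passed the threshold in 2 of 25 alternatives, namely with ko 48 h replicate 4 left out (adjusted p = 0.0472) and with wt 72 h replicate 4 left out as well (adjusted p = 0.0237).

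Cd160 and Btla encode receptors for the same ligand, the herpesvirus entry mediator HVEM. Cd160 (ENSMUSG00000038304, chromosome 3, 96798763 to 96829351, minus strand) had 62.1, 68.7, 75.1 and 79 CPM in ko and 67.1, 69.8, 70.1 and 82.3 CPM in wt libraries at 72 h, which overlapped throughout. At 48 h it had 45.7, 49.4, 45 and 36.8 CPM in ko and 34.5, 38.6, 36.2 and 32.1 CPM in wt libraries, where 3 of the 4 ko libraries were above all wt libraries. The log2 fold change was 0.1 at 72 h (95% interval -0.1 to 0.3, adjusted p = 0.437) and 0.36 at 48 h (SE 0.10, adjusted p = 0.0262). The 72 h value was -0.02 with library-size scaling, and 0.18 with adjusted p = 0.0458, past the threshold, when ko 48 h replicate 4 and wt 72 h replicate 4 were left out. The 48 h call was lost in 5 of the 16 fits that leave out a library, namely ko 48 h replicates 1, 2 and 3 (adjusted p = 0.0809, 0.146 and 0.0519) and wt 48 h replicates 1 and 4 (adjusted p = 0.0839 and 0.0876). The fits that leave out a 72 h library kept the call, but remove no library from this comparison. Of its exonic bases 68 are shared with Pdzk1 on the other strand, which had at most 15 counts in a library.

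Btla (ENSMUSG00000052013, chromosome 16, 45224315 to 45257670, plus strand) was the receptor with no call between the genotypes besides Ctla4. It averaged 36.2 ± 1.5 CPM in ko and 38.9 ± 2.91 CPM in wt cells at 72 h, and 43.8 ± 4.94 CPM in ko and 49 ± 4.18 CPM in wt cells at 48 h (SD, n = 4 each). The libraries overlapped at both times. Its log2 fold changes were 0.02 at 72 h (95% interval -0.15 to 0.19, adjusted p = 0.88; -0.11 with library-size scaling) and -0.13 at 48 h (95% interval -0.3 to 0.04, adjusted p = 0.376).

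Entpd1 (ENSMUSG00000048120, chromosome 19, 40612366 to 40741602, plus strand) encodes CD39, which breaks down extracellular ATP and ADP to AMP. It had 29.6, 26.6, 29.8 and 27.4 CPM in ko libraries at 72 h, against 22.8, 25.2, 22.8 and 22.1 CPM in wt libraries, with no overlap. At 48 h it had 6.94, 8.05, 7.61 and 7.95 CPM in ko libraries and 5.44, 7.04, 7.73 and 7.24 CPM in wt libraries, which overlapped. The log2 fold change was 0.41 at 72 h (SE 0.09, adjusted p = 0.000928), past the threshold in all 25 alternatives, and 0.19 at 48 h (95% interval -0.02 to 0.4, adjusted p = 0.289), past it in none.

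Tox (ENSMUSG00000041272, chromosome 4, 6686353 to 6991557, minus strand) was the one gene of the set that was lower in ko cells. At 72 h it had 8.06, 8.97, 7.16 and 6.48 CPM in ko libraries, against 11.3, 14.8, 10.1 and 8.83 CPM in wt libraries. The highest ko library lay just above the lowest wt library. The fitted difference was -0.43 on the log2 scale (SE 0.14, adjusted p = 0.017), but -0.26 (adjusted p = 0.125) without wt 72 h replicate 2, its highest library, -0.36 (adjusted p = 0.0641) without ko 72 h replicate 4, and -0.32 (adjusted p = 0.0611) with exon length offsets. At 48 h it had 7.05, 7.7, 8.94 and 10.3 CPM in ko libraries, against 8.49, 9.79, 9.01 and 8.92 CPM in wt libraries, and its log2 fold change was -0.06 (95% interval -0.34 to 0.22, adjusted p = 0.853). Tox shares 260 exonic bases with Gm11802, which had 0 counts in all libraries.

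Tox2 (ENSMUSG00000074607, chromosome 2, 163203125 to 163324170, plus strand), the relative of Tox also linked to exhausted cells, was close to the limit of detection and was not tested in the main comparison. Its libraries held 3, 10, 2 and 0 reads in ko and 0 reads in each of the 4 wt libraries at 72 h. At 48 h they held 3, 6, 3 and 8 reads in ko and 8, 3, 0 and 1 reads in wt libraries. A count of 0 allows up to 3 counts, which is 0.0765 to 0.102 CPM in these libraries. In a fit with no filter on low counts, over 27843 genes, its adjusted p was 0.00553 at 72 h and 0.739 at 48 h, and the 72 h value rests on 15 ko reads, of which 10 came from 1 library.

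**Figure D2:**
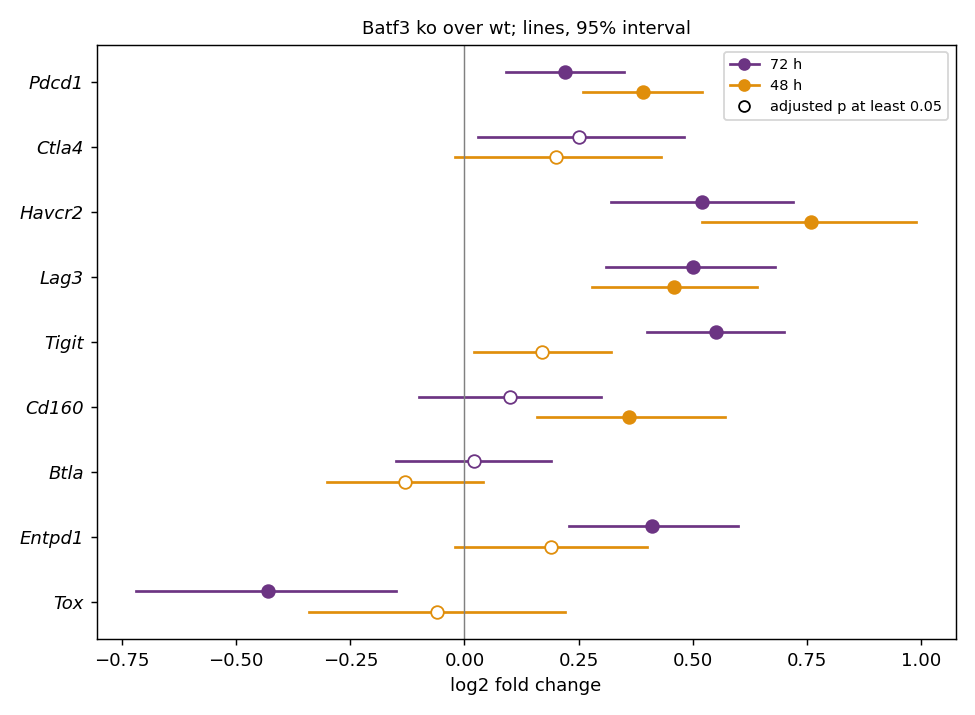
Log2 fold changes of ko over wt (horizontal axis) for the 9 tested genes, at 72 h (upper point of each pair) and 48 h (lower point), with 95% intervals as lines; open points have an adjusted p of at least 0.05. Havcr2 and Lag3 lie right of 0 at both times, Tigit is at 0.55 at 72 h and at 0.17 at 48 h, and Tox at 72 h (-0.43) is the one filled point left of 0.

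The 6 genes that rose with culture time, and are grouped here for that rise, changed more over time than between the genotypes. Genes in general did so too. Over all tested genes the median absolute log2 fold change over time was 0.52 in ko and 0.45 in wt cells. Between the genotypes it was 0.24 at 72 h and 0.14 at 48 h. In ko cells 6 of the 9 tested genes were higher and 1 lower at 72 h than at 48 h, where 34.4% of all tested genes were higher and 33.6% lower. In wt cells the numbers were also 6 and 1, where 33.6% of all tested genes were higher and 29.9% lower. The genes that rose were Pdcd1, Havcr2, Lag3, Tigit, Cd160 and Entpd1 in both genotypes, and Btla fell in both. Median log2 fold changes of the 9 were 0.75 in ko and 0.89 in wt cells, beside 0.03 and 0.05 over all tested genes. The comparisons of times use the same libraries as those of genotypes, so their values are set side by side here and not counted as separate evidence.

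Havcr2 changed most with time. It averaged 25.9 ± 0.218 CPM at 72 h against 6.64 ± 0.637 CPM at 48 h in ko cells, and 19.7 ± 1.34 CPM at 72 h against 4.03 ± 0.589 CPM at 48 h in wt cells (SD, n = 4 each). These are log2 fold changes of 2.03 (SE 0.10, adjusted p = 1.38e-14) in ko and 2.27 (SE 0.11, adjusted p = 8.47e-15) in wt cells. Entpd1 followed, at 28.4 ± 1.6 CPM at 72 h against 7.64 ± 0.504 CPM at 48 h in ko cells and 23.2 ± 1.37 CPM at 72 h against 6.86 ± 0.989 CPM at 48 h in wt cells (SD, n = 4 each). Its log2 fold changes were 1.96 in ko and 1.73 in wt cells. Lag3 averaged 413 ± 33.6 CPM at 72 h against 129 ± 25.8 CPM at 48 h in ko cells, and 320.3 ± 26 CPM at 72 h against 95.8 ± 7 CPM at 48 h in wt cells (SD, n = 4 each), a log2 fold change of 1.75 in ko and 1.71 in wt cells. For these 3 genes no 72 h library overlapped a 48 h library of the same genotype. How many of all tested genes were apart in this way was not counted, over time or between the genotypes.

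Tigit rose by 1.23 in ko and 0.86 in wt cells on the log2 scale, Cd160 by 0.75 in ko and 1.01 in wt cells, and Pdcd1 by 0.72 in ko and 0.89 in wt cells, each with no overlap between times and past the threshold in all 25 alternatives. Btla fell, with log2 fold changes of -0.21 in ko (SE 0.08, adjusted p = 0.0286) and -0.36 in wt cells (SE 0.08, adjusted p = 0.000549). The ko call for Btla was lost with exon length offsets (-0.08, adjusted p = 0.394) and on leaving out ko 72 h replicate 1 (adjusted p = 0.0831), replicate 1 of ko 48 h (adjusted p = 0.119) or its replicate 4 (adjusted p = 0.0711). Ctla4, at 0.24 in ko (adjusted p = 0.0549) and 0.19 in wt cells (adjusted p = 0.131), and Tox, at -0.08 in ko (adjusted p = 0.637) and 0.29 in wt cells (adjusted p = 0.0634), did not pass. For Ctla4 11 of 25 alternatives did in ko and 2 in wt cells. For Tox 0 did in ko and 3 in wt cells, namely without wt 72 h replicate 3 (0.35, adjusted p = 0.0399), without wt 72 h replicate 4 (0.38, adjusted p = 0.0164) and with ko 48 h replicate 4 left out as well as that library (0.38, adjusted p = 0.00989).

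**Figure D3:**
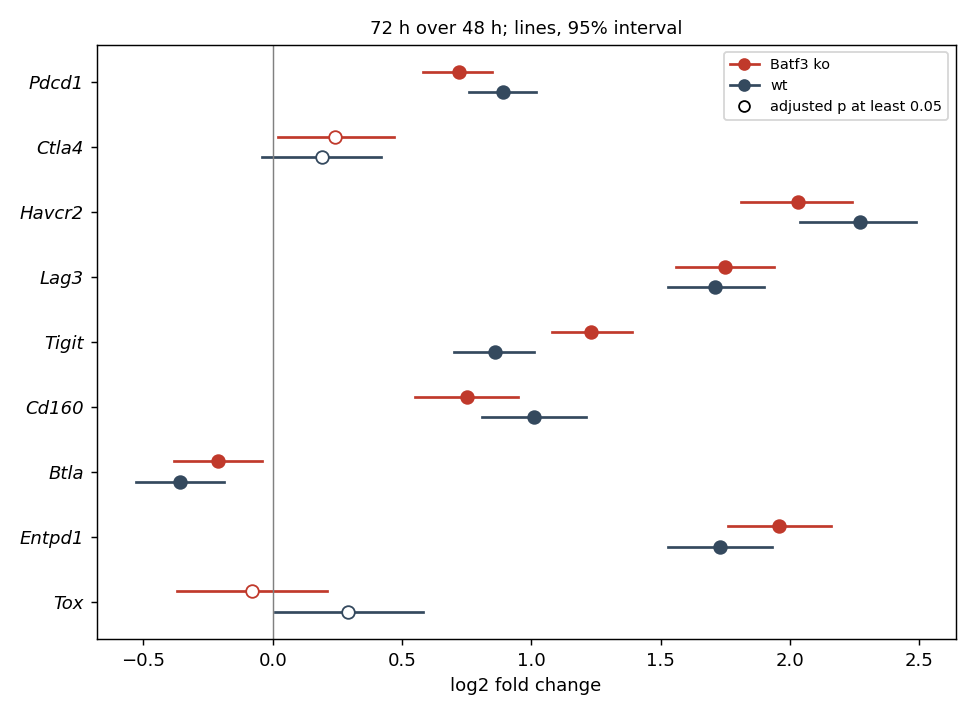
Log2 fold changes of 72 h over 48 h (horizontal axis) for the 9 tested genes in ko (upper point of each pair) and wt cells (lower point), with 95% intervals as lines; open points have an adjusted p of at least 0.05. Havcr2, Lag3 and Entpd1 lie between 1.71 and 2.27, and Btla is the one gene with filled points left of 0.

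Whether ko and wt cells differed by more at one time than at the other was tested as an interaction, the log2 fold change of ko over wt at 72 h minus that at 48 h. Tigit was the 1 gene of the 9 past the threshold, with an interaction of 0.38 (SE 0.10, adjusted p = 0.0348), and 0 genes of the set were lower, where 2.08% of all tested genes were higher and 3.53% lower. The Tigit call held in 12 of 24 alternatives. It was lost in 9 of the 16 fits that leave out a library and, among others, without ko 48 h replicate 4 and wt 72 h replicate 4 (0.28, adjusted p = 0.0655), with library-size scaling (0.28, adjusted p = 0.0951) and with exon length offsets (0.33, adjusted p = 0.0812). The value stayed between 0.28 and 0.44 throughout. For Havcr2 the interaction was -0.24 (95% interval -0.55 to 0.07, adjusted p = 0.382), for Pdcd1 -0.17 (95% interval -0.36 to 0.01, adjusted p = 0.278), for Cd160 -0.26 (95% interval -0.54 to 0.02, adjusted p = 0.287) and for Tox -0.37 (95% interval -0.78 to 0.03, adjusted p = 0.282). Thus the calls of Cd160 at 48 h alone, and of Entpd1 and Tox at 72 h alone, do not show that the genotype effect changed with time. The interaction of Entpd1 was 0.23 (95% interval -0.05 to 0.51, adjusted p = 0.364).

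To set levels of different genes side by side, CPM was divided by the kilobases of exon of each gene in GENCODE M21. Ctla4 led at every point, with 573 ± 41.8 in ko and 525 ± 87.5 in wt cells at 72 h, and 508 ± 69 in ko and 453 ± 41.7 in wt cells at 48 h (CPM per kb, SD, n = 4 each). Among 15186 tested genes with an exon length it ranked between 165 and 171 in the 4 groups. At 48 h Tigit came next, with 63.7 ± 6.36 in ko and 58 ± 3.67 CPM per kb in wt cells, before Lag3 with 61.2 ± 12.2 in ko and 45.4 ± 3.32 CPM per kb in wt cells, and in ko cells these neighbours differed by less than their spread. At 72 h Lag3 stood above Tigit, with 196 ± 15.9 in ko and 152 ± 12.3 CPM per kb in wt cells for Lag3 and 143 ± 10.6 in ko and 107 ± 8.08 CPM per kb in wt cells for Tigit. Among the same 15186 genes Lag3 held rank 363 in ko and 421 in wt cells at 72 h, and rank 1085 in ko and 1442 in wt cells at 48 h.

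Pdcd1 was the next gene in every group, with 44.7 ± 2.37 in ko and 42 ± 2.42 in wt cells at 72 h, and 28.5 ± 2.92 in ko and 22.3 ± 1.24 in wt cells at 48 h (CPM per kb). Cd160 and Btla were neighbours at 48 h, at 16.7 ± 2.01 and 12.9 ± 1.45 CPM per kb in ko cells and at 13.4 ± 1.03 and 14.4 ± 1.23 CPM per kb in wt cells, and in wt cells they differed by less than their spread. At 72 h they were apart, with Cd160 at 27 ± 2.8 in ko and 27.4 ± 2.57 in wt cells and Btla at 10.7 ± 0.442 in ko and 11.5 ± 0.858 in wt cells (CPM per kb). Havcr2 reached 9.53 ± 0.0801 in ko and 7.26 ± 0.494 CPM per kb in wt cells at 72 h. Entpd1 reached 5.08 ± 0.287 in ko and 4.16 ± 0.246 CPM per kb in wt cells at that time. Tox stayed between 1.01 and 1.48 CPM per kb as a mean in all 4 groups. Havcr2, Entpd1 and Tox lay close together in wt cells at 48 h, at 1.48 ± 0.216, 1.23 ± 0.177 and 1.19 ± 0.0714 CPM per kb, where neighbours differed by about their spread or less.

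**Figure D4:**
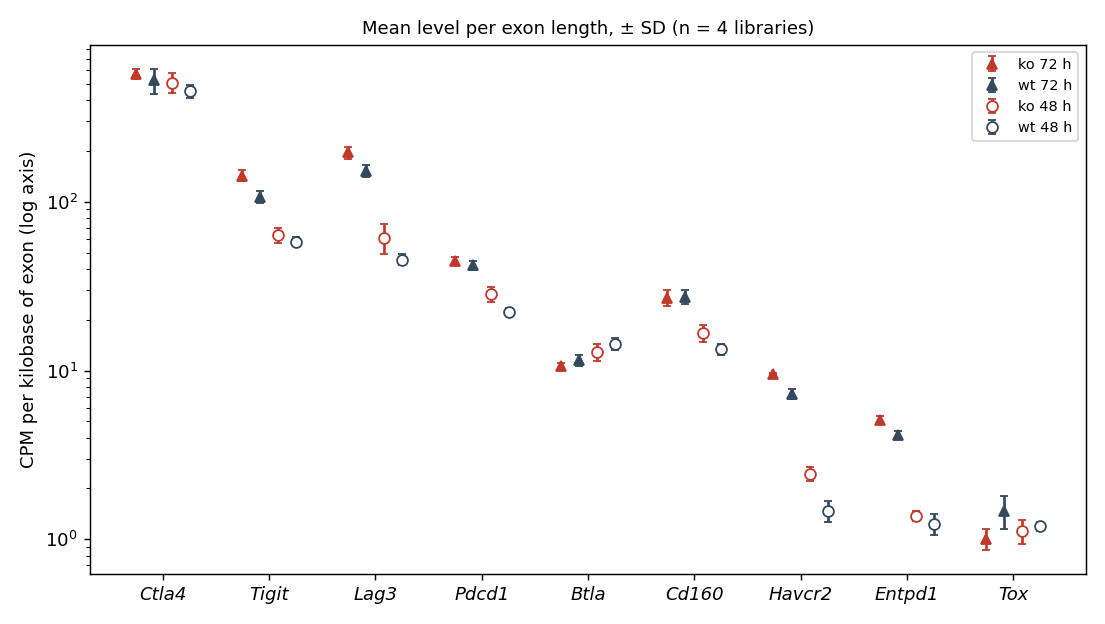
Mean CPM per kilobase of exon (vertical log axis) with SD of 4 libraries for the 9 tested genes, ordered by their level in wt cells at 48 h; triangles are 72 h, circles 48 h, red ko and grey wt. Ctla4 lies at 453 CPM per kb or more in all groups, and Lag3 overtakes Tigit at 72 h.

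Across the 16 libraries, which share groups, depth and scaling, Pdcd1, Havcr2, Lag3, Tigit, Cd160 and Entpd1 ran in parallel, with Pearson correlations of log2 CPM from 0.89 (Tigit with Cd160) to 0.98 (Lag3 with Pdcd1 and with Entpd1, and Havcr2 with Entpd1). Btla ran against them, at -0.74 to -0.79, and Tox showed no more than 0.12 with any of them. These are descriptions over 4 groups that lie apart in most of these genes. Among 8371 genes (average log2 CPM 3 or more), those most like Havcr2 were Anxa2 and Plac8 (r = 0.993 and 0.992), those most like Lag3 were Stard10 and Pld3 (both 0.995), and those most like Entpd1 were Ccni and Selenbp1 (0.995 and 0.994). Tigit was nearest to Itm2b and Card19 (0.989 and 0.988), Cd160 to the activating receptor gene Klrk1 and to Ms4a4b (0.984 and 0.983), and Pdcd1 to Ptms and Basp1 (0.993 and 0.988). A gap of 1976 bp lies between Ptms and Lag3, and the r of these genes was 0.984. Ctla4 (P2ry10b, 0.888, and Rbm39, 0.879), Btla (Nemf, 0.923, and Ccny, 0.898) and Tox (Map3k5, 0.831, and Arid2, 0.823) had no neighbour as close.

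The ligands of these receptors were read in the same cells. For this and the following lists, the background over all tested genes is 16.9% called higher with 19.5% called lower at 72 h, and 4.41% called higher with 2.66% called lower at 48 h. Of 12 tested ligand genes 3 were higher and 2 lower in ko than in wt cells at 72 h, and 1 was higher and 0 lower at 48 h, with medians of -0.07 and -0.03, and the 72 h counts are near that background. Lgals3, which encodes galectin-3, a lectin that binds LAG-3, was the gene called at both times. It averaged 386 ± 15.8 CPM in ko and 174 ± 11.8 CPM in wt cells at 72 h, and 53.3 ± 2.28 CPM in ko and 24.6 ± 3.28 CPM in wt cells at 48 h (SD, n = 4 each), with log2 fold changes of 1.28 and 1.15. For the ligands of PD-1 the 72 h calls went in opposite directions, since Cd274, encoding PD-L1, was higher in ko cells (0.28, adjusted p = 0.0213) and Pdcd1lg2, encoding PD-L2, was lower (-0.8, adjusted p = 0.00011). Cd80, whose product binds CTLA-4 and CD28, was higher at 72 h (0.35, adjusted p = 0.00219).

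Of 7 tested genes in a list of activating receptors that share ligands or family with the set, 1 was higher and 2 were lower in ko cells at 72 h, and 0 were higher and 2 lower at 48 h, beside 16.9% and 19.5% at 72 h and 4.41% and 2.66% at 48 h over all tested genes. Cd226, the activating rival of Tigit for CD155, averaged 56.1 ± 5.52 CPM in ko and 74.2 ± 3.18 CPM in wt cells at 48 h (log2 fold change -0.37, adjusted p = 0.0318), and Icos, a relative of CD28, was lower at that time by -0.26 (adjusted p = 0.042). At 72 h Tnfsf14, which encodes LIGHT, a further ligand of HVEM placed in the list with receptors, was lower in ko cells (-0.84, adjusted p = 1.7e-06). Cd96, another receptor for CD155, for which inhibitory roles are described in the mouse, was also lower (-0.28, adjusted p = 0.0137). At that time the adhesion receptor gene Cd2 was higher (0.21, adjusted p = 0.00531).

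Of 14 tested genes in a list of other inhibitory receptors, 5 passed as higher and 0 as lower at 72 h in ko against wt cells (median 0.13), beside 16.9% and 19.5% of all tested genes. At 48 h 4 were higher and 1 lower (median 0.22), beside 4.41% and 2.66% of all. The list shares Adora2a with the adenosine list and Cd244a with the natural killer cell markers. Vsir, which encodes VISTA, averaged 149 ± 12.1 CPM in ko and 116 ± 5.58 CPM in wt cells at 72 h, and 51.3 ± 2.42 CPM in ko and 39.5 ± 1.67 CPM in wt cells at 48 h (SD, n = 4 each). Klrc1, which encodes NKG2A, was higher by 1 at 72 h and 0.53 at 48 h on the log2 scale. Cd244a (0.64, adjusted p = 0.0341) and Cd101 (0.47, adjusted p = 0.0446) were higher at 72 h, and Lair1, a collagen receptor (0.66, adjusted p = 0.0128), at 48 h. Cd200, which encodes a ligand of the inhibitory receptor CD200R1 and was placed in the list with it, was lower at 48 h (-0.35, adjusted p = 0.0397).

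A list named for signalling downstream of the receptors held 16 tested genes. It also took in T cell receptor adaptors and clathrin adaptor subunits, so its counts do not stand for inhibitory signalling alone. In ko cells 1 gene was higher and 4 were lower at 72 h (16.9% and 19.5% over all tested genes). At 48 h 0 were higher and 1 was lower (4.41% and 2.66% over all). Ptpn11 encodes SHP-2, the phosphatase recruited by PD-1, and averaged 73.8 ± 2.99 CPM in ko and 108 ± 3.96 CPM in wt cells at 72 h (SD, n = 4 each; log2 fold change -0.42, adjusted p = 2.33e-06). Ptpn2, another tyrosine phosphatase gene, was higher at that time (0.48, adjusted p = 7.08e-05). Trat1, an adaptor associated with the T cell receptor, was lower at both times (-0.81 at 72 h and -0.49 at 48 h), and Tespa1, a T cell receptor signalling adaptor, at 72 h (-0.96).

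Of 12 tested genes for extracellular ATP and adenosine, Entpd1 among them, 8 passed the threshold at 72 h, 3 of them higher in ko cells and 5 of them lower (16.9% and 19.5% over all tested genes), and 1 at 48 h, higher (4.41% over all). Nt5e, which encodes CD73 and turns the AMP made by CD39 into adenosine, averaged 46.4 ± 2.33 CPM in ko and 25.4 ± 3.89 CPM in wt cells at 72 h (SD, n = 4 each; log2 fold change 0.99, adjusted p = 8.09e-05). Adora2a, which encodes an adenosine receptor that dampens T cells, was higher at both times (0.38 at 72 h, adjusted p = 0.000162, and 0.29 at 48 h, adjusted p = 0.0149). Lower at 72 h were Ada, which breaks adenosine down (-0.38, adjusted p = 0.00837), and Entpd7 (-0.65, adjusted p = 0.0021). In the TOX family 2 of 4 genes, Tox and Tox4, passed the filter, and Tox4 passed the threshold in no comparison.

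Of 29 transcription factors known to act on inhibitory receptor genes or with TOX, Batf3 included, 14 passed as lower and 5 as higher at 72 h in ko against wt cells (median -0.23), beside 19.5% and 16.9% of all tested genes. At 48 h 4 were higher and 3 lower (median -0.06), beside 4.41% and 2.66% of all. Batf3, the gene removed by the knockout, is counted among the lower genes at both times. Nr4a3, an orphan nuclear receptor induced by T cell receptor signals, averaged 43.2 ± 3.17 CPM in ko and 122 ± 6.04 CPM in wt cells at 72 h, and 154 ± 25.2 CPM in ko and 233 ± 3 CPM in wt cells at 48 h (SD, n = 4 each), with log2 fold changes of -1.38 and -0.56. Egr3 (-1.54, adjusted p = 1.5e-07) and Egr2 (-1.39, adjusted p = 0.000192), induced by the same signals, were lower at 72 h. Prdm1, which encodes Blimp-1, averaged 13.7 ± 2.21 CPM in ko and 7.41 ± 0.94 CPM in wt cells at 48 h (SD, n = 4 each; log2 fold change 0.92, adjusted p = 7.31e-06), and Id2 was higher at that time by 0.39 (adjusted p = 0.0023).

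**Figure D5:**
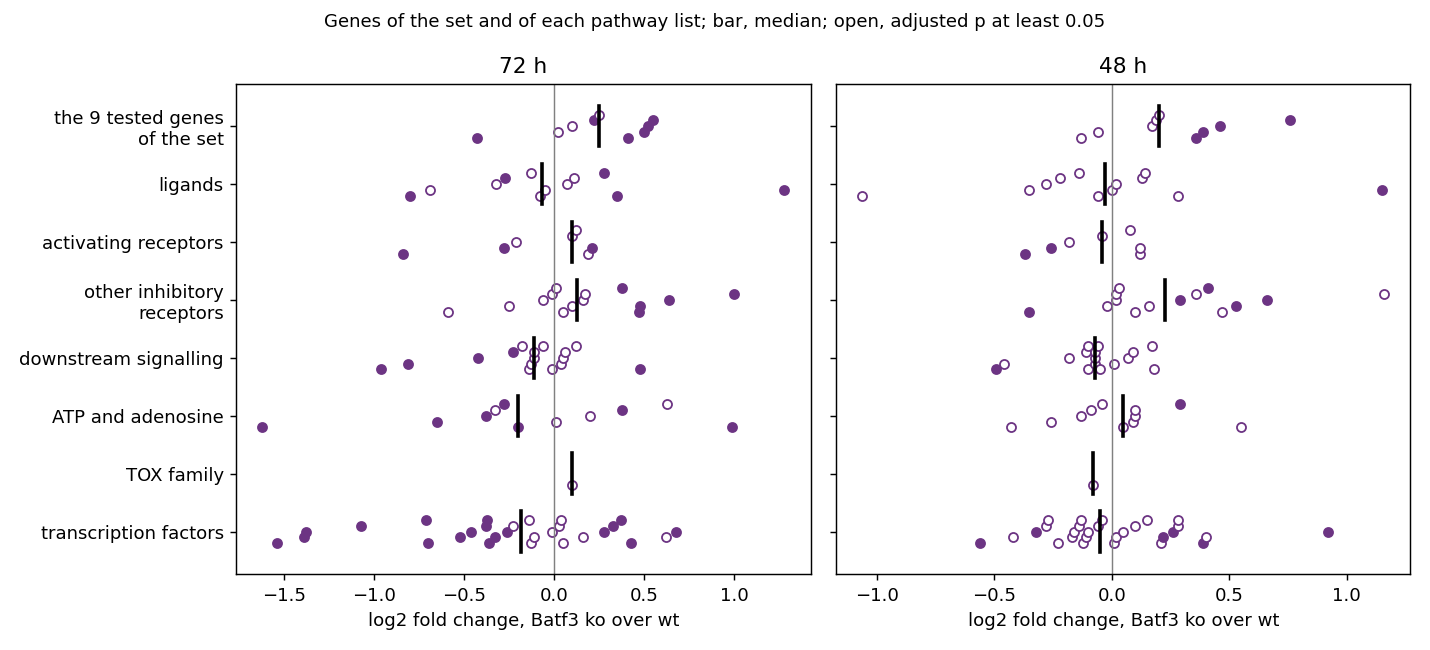
Log2 fold changes of ko over wt (horizontal axes) at 72 h (left) and 48 h (right), 1 point per tested gene of the set and of each pathway list, with the genes of the set and Batf3 left out of the lists; filled points passed the threshold and black bars are medians. Most filled points of the other inhibitory receptors lie right of 0 and most of the transcription factors at 72 h lie left of 0.

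Transcripts of other cell types moved in the same libraries. Of 12 markers of natural killer and gamma delta T cells, some of which activated CD8 T cells also express, 6 were higher in ko cells and 1 was lower at 72 h. At 48 h 3 were higher and 0 lower. Over all tested genes 16.9% passed as higher with 19.5% as lower at 72 h, and 4.41% with 2.66% at 48 h. The summed level of the 12 markers was 95.9 to 105 CPM in ko and 88.4 to 98.5 CPM in wt libraries at 72 h, and 81.2 to 98.7 CPM in ko and 77.4 to 84.4 CPM in wt libraries at 48 h. Of 14 myeloid markers 3 passed the filter, and 3 of them were higher at 72 h and 2 at 48 h (16.9% and 4.41% over all tested genes). Their summed level was 62.5 to 66.9 CPM in ko and 26.6 to 33.6 CPM in wt libraries at 72 h, and 17.1 to 19.7 CPM in ko and 8.71 to 11.4 CPM in wt libraries at 48 h, from Ccr2, Fcgr3 and Cd68, while Adgre1, S100a8 and S100a9 were at 0 in all libraries. Dendritic cell markers summed to 111 to 127 CPM in ko and 74.9 to 95.2 CPM in wt libraries at 72 h, and to 24.5 to 28.9 CPM in ko and 21.7 to 25.2 CPM in wt libraries at 48 h. They were mostly H2-Ab1, and Siglech, Clec9a and Cd209a were at 0 in all libraries.

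Markers of B cells summed to 305 to 335 CPM in ko and 224 to 294 CPM in wt libraries at 72 h, and to 285 to 318 CPM in ko and 247 to 258 CPM in wt libraries at 48 h. Nearly all of this was Ighm, and Ms4a1 and Pax5 averaged at most 0.0745 CPM in every group. For CD4 and regulatory T cells the sums were 136 to 164 CPM in ko and 126 to 162 CPM in wt libraries at 72 h, and 69.7 to 96.1 CPM in ko and 68.3 to 71.3 CPM in wt libraries at 48 h. Foxp3 averaged 0.0647 to 0.185 CPM and Cd4 0.106 to 0.772 CPM over the groups. Both were a small part of these sums, which came mostly from genes of the list that are not named here. Of the 7 genes in that list 6 were tested. Comparing genotypes at 48 h, 2 passed as higher with 0 as lower, beside 4.41% and 2.66% of all tested genes. At 72 h 1 gene passed in each direction, beside 16.9% higher with 19.5% lower over all. CD8 T cell markers summed to 2419 to 2527 CPM in ko and 2224 to 2248 CPM in wt libraries at 72 h, and to 1768 to 1855 CPM in ko and 1703 to 1746 CPM in wt libraries at 48 h. The part of these transcripts in the results for the receptor genes was not tested.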

How the data were processed

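Poly-A RNA was sequenced from 16 libraries, made with a stranded kit from 100 ng of RNA per the labels. The submitters' processing notes name bcl2fastq 2.2.0, STAR 2.7 and featureCounts, with GRCm38 as the build. The authors deposited read counts per gene as whole numbers, with no normalization. How strand and reads matching several genes were treated, and with which annotation, is not given in the sources used here. Groups came from the labels. CPM was computed from column sums. All libraries were fitted in edgeR 4.0.16 (R 4.3.3, limma 3.58.1) with TMM, filterByExpr at a minimum count of 10 and a robust two-sided quasi-likelihood F test, adjusted over 15197 genes. An SE is the log2 fold change divided by the square root of F. Positions and exon lengths came from GENCODE M21, which held 55154 of the identifiers. Alternatives were DESeq2 1.42.0, other scalings and filters, a fit of the 2 groups of a comparison alone, a replicate block, exon length offsets and leaving out libraries. The test was tried on simulated data. The 10 genes and the lists were chosen with earlier results of these data known. The text names all 10, the 2 genes most correlated with each (average log2 CPM of at least 3) and, per list and time, up to 4 called genes with the largest change (average log2 CPM of at least 1). Depth limits cover counting error only. Of 24 pairs of libraries within groups none agreed within sampling noise.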

Additional observations from a re-analysis of the deposited data

Results flagged for a closer look

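In 40 groups of 4 libraries (the 10 genes in each group), 3 held a library far from the others, where chance flags about 1 in 20 groups. Pdcd1 had 63.5 CPM in ko 48 h replicate 4, against 51.9 to 52.6 CPM in the other 3 libraries, and this library also stands apart over all genes. Tigit had 87.3 CPM in wt 72 h replicate 4, the other library that stands apart, against 101 to 103 CPM in the rest of its group. Btla had 42.8 CPM in wt 48 h replicate 3, against 50.6 to 51.7 CPM in the others.

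The effect of the genotype on Tigit differed between the times by 0.38 on the log2 scale (SE 0.10, adjusted p = 0.0348, edgeR quasi-likelihood test of the interaction), with 0.55 at 72 h and 0.17 at 48 h. The highest wt library at 72 h had 103 CPM and the lowest ko library 121 CPM, so every ko library was higher at 72 h. The call was lost without ko 48 h replicate 4 and wt 72 h replicate 4 (0.28, adjusted p = 0.0655), and the smallest and largest values over 24 alternatives were 0.28 and 0.44.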

How the results depend on the processing

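Of 25 calls among the 9 tested genes over the 5 comparisons, 20 were past the threshold in every alternative, and 0 called values changed sign. The exceptions are Cd160 at 48 h, Pdcd1 and Tox at 72 h, Btla over time in ko cells and the Tigit interaction, with values given above. The Tigit interaction left 0 genes of the set called with library-size scaling, with exon length offsets and without both libraries that stand apart, and 0 to 1 when leaving out each library in turn. Over all genes, 1075 were called at 48 h, 2550 without both libraries that stand apart and 507 to 1955 when leaving out each library in turn, the highest without ko 48 h replicate 4 and the lowest without wt 48 h replicate 1. For the interaction 853 were called, 1413 with library-size scaling and 446 to 1056 when leaving out each library. The cause was not tested. Library-size scaling moved the median of all genes by -0.13 at 72 h, and the share of calls that were higher there was 23.4%, against 46.4% with TMM. At 48 h that share was 48.3% with library-size scaling and 50.8% with DESeq2, against 62.3% with TMM, and for the interaction 13% with library-size scaling and 49% with exon length offsets, against 37%.

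Values that were not called changed sign as follows. With library-size scaling Cd160 at 72 h was -0.02, Btla at 72 h -0.11, the Ctla4 interaction -0.04 and the Lag3 interaction -0.06. Without both libraries that stand apart Tox over time in ko cells was 0. Leaving out each library in turn, Tox at 48 h ran from -0.14 to 0.01, Btla at 72 h from -0.01 to 0.09, Tox over time in ko cells from -0.16 to 0, the Ctla4 interaction from -0.06 to 0.15 and the Lag3 interaction from -0.03 to 0.16.

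Of 24 same-numbered pairs of libraries 9 had correlated deviations above 0.1 (range -0.599 to 0.294). By a strict criterion, 0 of 16 libraries correlated best with their own number in every other group. Weak pairing could miss that criterion, and no values for pairs with unlike numbers are given. Whether replicate numbers pair the libraries is therefore not settled. With the replicate number as a block 4 genes of the set were called at 48 h, 7 at 72 h (Ctla4 added, adjusted p = 0.0264), 7 over time in wt cells, 8 over time in ko cells (Ctla4 added, adjusted p = 0.0186) and 1 in the interaction. Of 15197 genes the same fit called 918 at 48 h, 5399 at 72 h and 709 in the interaction. Over time it called 9572 in wt and 10255 in ko cells. Depth limits Tox2 alone among the 10 genes.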

Other observations

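Of 14 tested genes in the list of other inhibitory receptors, 11 were higher and 0 lower at 72 h than at 48 h in ko cells (34.4% and 33.6% over all tested genes), and 10 were higher and 1 lower in wt cells (33.6% and 29.9% over all), with medians of 0.56 in ko and 0.91 in wt cells on the log2 scale. Klrg1 and Lilrb4a passed in neither genotype. Vsir rose by 1.6 in ko and 1.53 in wt cells and Cd101 by 1.43 in both, while Cd200 fell in wt cells (-0.5, adjusted p = 0.000176) and was at -0.14 in ko cells (adjusted p = 0.221). Of 12 tested ligand genes 7 rose and 3 fell in ko cells, and 6 rose and 3 fell in wt cells, beside the same shares over all genes. Cd274 rose by 1.19 in ko and 0.76 in wt cells and Lgals3 by 2.92 in ko and 2.79 in wt cells. For Nt5e, the enzyme after CD39, the genotype effect differed between the times by 0.89 (SE 0.24, adjusted p = 0.0322, edgeR quasi-likelihood test of the interaction). In its list 1 of 12 tested genes was called higher in the interaction and 2 lower, beside 2.08% and 3.53% of all tested genes. Other lists held such calls too, among them Tnfsf14 (-0.96) and Ptpn11 (-0.32), which were lower, and Ptpn2 (0.58), which was higher. Of 29 transcription factors 1 was higher and 8 were lower.

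Tigit and Cd226 compete for the same ligand, and the ratio of their reads was computed after their values had been seen, as 1 of 4 ratios tested together with Ctla4 over Cd28. There were 2.38 ± 0.489 Tigit reads per Cd226 read in ko and 1.4 ± 0.26 in wt cells at 72 h, and 1.05 ± 0.18 in ko and 0.719 ± 0.0547 in wt cells at 48 h (SD, n = 4 each). The 4 ko libraries were above the 4 wt libraries at each time. The exact two-sided permutation p was 0.0286 at either time, the smallest that 4 against 4 can give, and 0.0572 after Benjamini-Hochberg adjustment over the 4 ratios. Ctla4 reads per Cd28 read were 4.13 ± 0.166 in ko and 3.73 ± 0.339 in wt cells at 72 h (exact permutation p = 0.0571, adjusted 0.0761), and 8.38 ± 1.15 in ko and 7.91 ± 0.786 in wt cells at 48 h (exact permutation p = 0.571). Reads were not divided by exon length, so the ratios compare groups and not the genes.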
